A study of Mus musculus with 13 samples.

Results

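The genes described here carry glucose through the hepatocyte: its transport across the membrane, its phosphorylation and release, glycolysis, lactate formation and export, the entry steps of gluconeogenesis, and the making and breaking of glycogen. They were chosen as a list of gene symbols by function, with the pyruvate kinase gene written as Pkm, with no threshold on a measured value, but with earlier results of these data known. All 42 were found among the 23361 gene symbols of each table, and all 42 passed the filter on low counts. RNA came from tumours of 13 libraries, 8 from mice given siRNA against luciferase (siLuc) and 5 from mice given siRNA against Yap (siYap), in both cases in lipid nanoparticles injected into a vein for 9 days. Every mouse was Mst1-/-; Mst2Flox/Flox on a mixed background (C57BL/6; 129Sv) and had received adenovirus carrying Cre, which deletes Mst2 in the liver cells it reaches, while Mst1 was absent from the whole animal. Loss of these Hippo kinases leads to hepatocellular carcinoma, which was followed by ultrasound before the animals were assigned at random. Age is not given in the labels, and neither normal liver nor an untreated tumour is among the samples.

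Hepatocytes take up and release glucose through the same carrier, store it as glycogen after a meal and make it anew from lactate and amino acids during fasting. They do this with liver forms of several enzymes whose regulation differs from that of the forms found in muscle, brain, fetal tissues and many tumours. In the normal lobule, gluconeogenesis is strongest around the portal vein and glycolysis around the central vein. Yap is a co-activator of transcription restrained by the Hippo kinases, and the comparison asks how these genes stand when it is lowered in an established tumour.

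The libraries held 23637021 to 37043914 fragments. Yap1 stood at 9.999 ± 1.37 FPKM (fragments scaled to transcript length and library depth; SD, n = 8) under siLuc and at 3.29 ± 0.845 FPKM (SD, n = 5) under siYap, without overlap (log2 fold change -1.58 ± 0.17 SE, adjusted p = 2.36e-05, edgeR). siYap replicates 1 and 3 had the lowest totals and the most ribosomal precursor Rn45s, 1160 and 1882 CPM (fragments scaled to library depth) against 479.5 to 811.8 CPM in the other 11 libraries. siLuc replicate 8 was male by Ddx3y, at 71.3 FPKM against at most 0.056 FPKM elsewhere. File names carry a code whose first digit, 6, 7 or 8, the labels do not explain. Whether any libraries share an animal is not stated in the labels, and the p-values therefore reflect only the scatter among libraries, part of which may be technical. Hepatocyte markers were high throughout, with the sum of 10 of them between 20940 and 29780 FPKM in siLuc and between 15460 and 29730 FPKM in siYap. Taken singly, 1 of the 10 rose and 3 fell. Among 7 cholangiocyte markers 3 fell and none rose, with sums of 1939 to 5055 FPKM in siLuc and 161 to 1141 FPKM in siYap. Of 9 markers of pericentral hepatocytes all 9 rose, and of 9 periportal markers 5 fell and none rose.

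Most steps of the glucose pathway did not pass the test. Of the 42 genes, 7 rose, 3 fell and 32 did not pass in edgeR's quasi-likelihood test at a Benjamini-Hochberg adjusted p under 0.05, which is 23.8% called against a background of 30.8% of the 15132 genes tested (16.0% higher and 14.8% lower). The median log2 fold change was 0.09, beside -0.003 over all genes tested. The median size of the change regardless of sign was 0.35, beside 0.40 over all. The rises were in the regulators Pfkfb1, Pfkfb3, Ppp1r3b and Ppp1r3c, in the hexokinase Hk3, in the pyruvate kinase Pkm and in the glycogen synthase Gys1. The falls were in the glucose carrier Slc2a2, the lactate carrier Slc16a1 and the glycogen phosphorylase Pygb. Counted by group, 4 of 8 glycogen genes were called, as were 2 of 11 of the preparatory steps of glycolysis (Fbp1 and fructokinase included), 1 of 7 of its payoff steps and none of the 3 gluconeogenic entry genes. In bulk tumour RNA, fewer cells of a type and less RNA per cell cannot be told apart. For 3 genes the lowest siYap library exceeded the highest siLuc library in FPKM (background 5.57% of genes tested), for 2 the reverse held (5.66%), and the groups overlapped for 37. All 10 called genes had the same sign within each of the digits 6, 7 and 8 of the file code, against 11 of the 32 that were not called. The genes were called on these same libraries, so this agreement is partly built in and is not separate evidence. The share over all genes tested was not computed. Digit 8 holds a single library of each treatment. Its siLuc library, replicate 8, is the male one, so sex and treatment cannot be told apart within that digit.

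**Figure D1:**
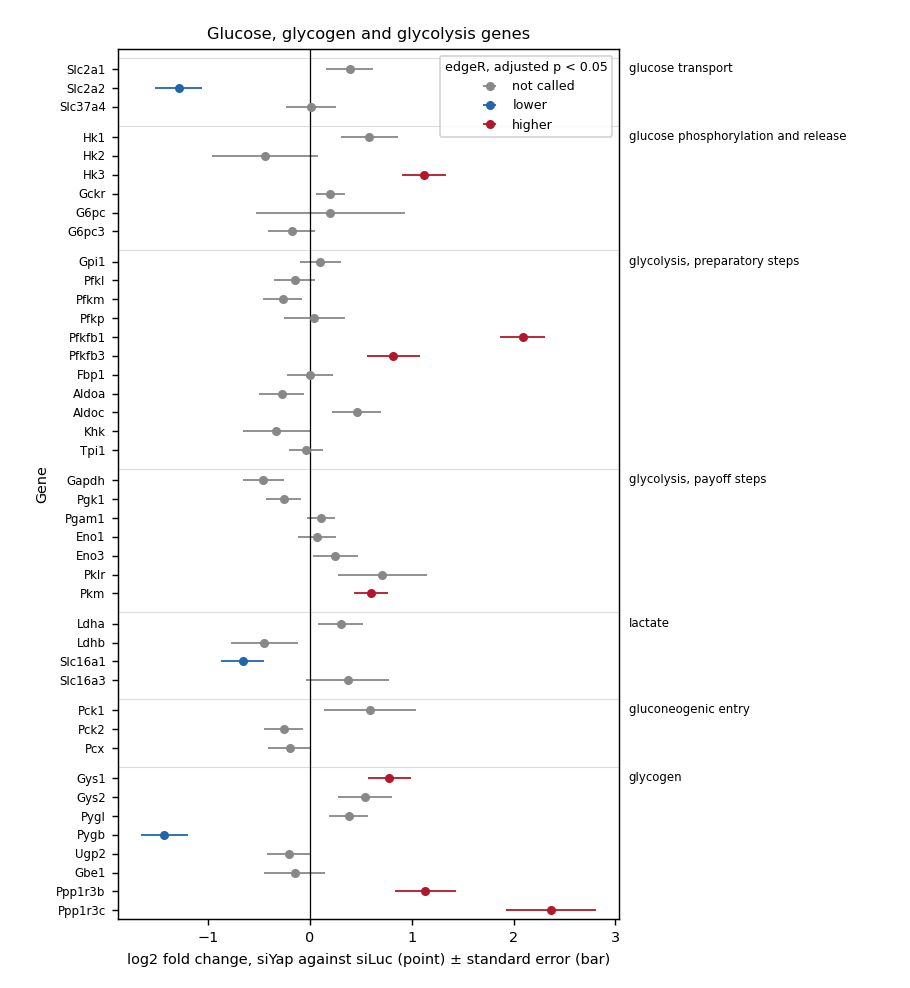
Log2 fold change of each of the 42 genes, siYap (n = 5) against siLuc (n = 8), with its standard error as a bar, grouped by role. Red and blue points passed the test and grey points did not; most of the glycolytic chain lies near 0, while Ppp1r3c and Pfkfb1 lie above 2 and Pygb and Slc2a2 below -1.

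Glucose transport. Slc2a2 encodes GLUT2, the high-capacity carrier of the hepatocyte membrane (mouse build mm10, chromosome 3, 28697903 to 28731359, plus strand, from the GENCODE annotation like all gene positions here). In siLuc it ran from 184.0 to 314 FPKM with a median of 241 FPKM, and the 5 siYap libraries read 71.7, 81.5, 108, 147 and 101 FPKM. Every siYap library lay below every siLuc library. The log2 fold change was -1.29 ± 0.23 (SE, adjusted p = 0.000759, edgeR), and the differences within digits 6, 7 and 8 were -1.30, -1.04 and -1.58. Slc2a1 encodes GLUT1, the carrier of fetal liver and most dividing cells. Its mean was 4.60 ± 1.51 FPKM for the 8 siLuc libraries and 5.89 ± 1.74 FPKM for the 5 siYap libraries, a log2 fold change of 0.39 ± 0.23 that did not pass (adjusted p = 0.208, edgeR). The GLUT2 transcript thus exceeded that of GLUT1 in every library, by 5.80 ± 0.69 on the log2 scale in siLuc and 4.11 ± 0.61 in siYap. The lowest siLuc ratio, 4.85, was just above the highest siYap ratio, 4.83. Slc37a4, which carries glucose 6-phosphate into the endoplasmic reticulum for release as glucose, had nearly equal means of 63.2 ± 21.3 and 62.9 ± 21.6 FPKM.

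Phosphorylation and release. Hk3 is a hexokinase best known from myeloid white blood cells (chromosome 13, 55005985 to 55021385, minus strand). It ran from 1.15 to 2.39 FPKM with a median of 1.80 FPKM in siLuc and read 4.25, 2.78, 5.52, 4.56 and 2.41 FPKM in siYap, so the groups did not overlap (log2 fold change 1.12 ± 0.22, adjusted p = 0.00187, edgeR). It rested on 154 to 287 fragments per siLuc library and 253 to 533 per siYap library. Of 6 neutrophil markers 5 rose, and their summed level ran from 37.95 to 193 FPKM in siLuc and from 160 to 1170 FPKM in siYap. One of them, S100a8, read 782, 94.1, 86.8, 241 and 664 FPKM in the siYap libraries. Its lowest siYap library, replicate 3, was the highest for Hk3, while replicate 5, at 664 FPKM of S100a8, was the lowest for Hk3. Of 7 macrophage markers 4 fell and none rose, with sums of 561 to 1227 and 245 to 526 FPKM. The part of these cells in the Hk3 value was not tested.

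Hk1, the general hexokinase, was at 1.04 ± 0.271 and 1.54 ± 0.784 FPKM (adjusted p = 0.129, edgeR). Hk2 is the hexokinase of muscle and of many tumours. It read 5.34 FPKM in siLuc replicate 1 and 0.644 to 1.13 FPKM in the other siLuc libraries, against 0.684 to 1.75 FPKM in siYap. Its log2 fold change of -0.44 ± 0.52 did not pass (adjusted p = 0.547, edgeR) and became 0.28 without siLuc replicate 1. Gckr, a nuclear regulator of glucose phosphorylation in the hepatocyte, was at 43.98 ± 7.24 and 49.8 ± 6.28 FPKM (log2 fold change 0.20 ± 0.14).

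G6pc, the catalytic subunit of glucose 6-phosphatase that completes glucose output, varied most among the 42 genes in both groups, with an SD of 1.56 in siLuc and 1.27 in siYap on the log2 CPM scale. The 8 siLuc libraries fell apart by file code. Those with digit 6 read 82.9 and 170 FPKM, that with digit 8 read 143 FPKM, and the 5 with digit 7 read 24.5, 12.8, 16.3, 11.4 and 19.3 FPKM. In siYap the order was the other way round, with 23.1 and 17.3 FPKM for digit 6, 110 and 108 FPKM for digit 7, and 77.9 FPKM for digit 8. The siYap minus siLuc difference was therefore -2.47 within digit 6, 2.72 within digit 7 and -0.86 within digit 8 on the log2 CPM scale, while the pooled log2 fold change was 0.20 ± 0.73 (adjusted p = 0.857, edgeR). The difference between digits was not tested. In each treatment, the libraries of digit 6 share a number in their file names, as do those of digit 7 in siYap. What the number stands for is not stated. Its widespread relative G6pc3 stayed at 1.71 ± 0.432 and 1.49 ± 0.345 FPKM.

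**Figure D2:**
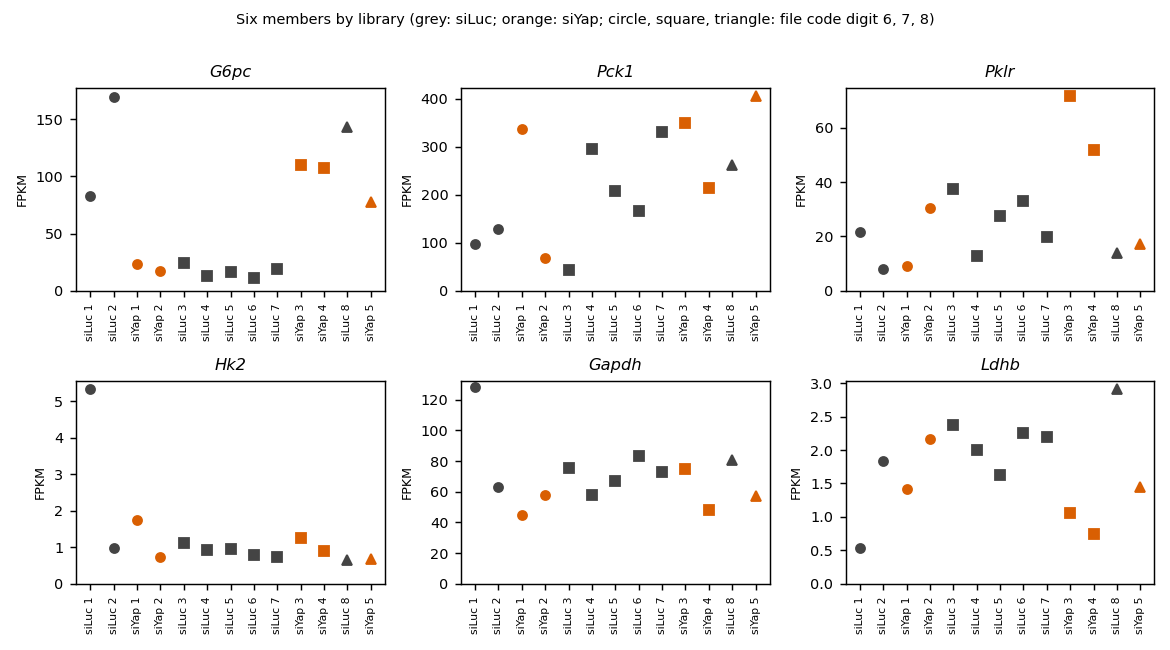
FPKM of G6pc, Pck1, Pklr, Hk2, Gapdh and Ldhb in each library (grey, siLuc; orange, siYap), with circles, squares and triangles for file code digits 6, 7 and 8. G6pc is high in siLuc and low in siYap at digit 6 and the reverse at digit 7, and siLuc replicate 1 stands highest for Hk2 (5.34 FPKM) and Gapdh (128 FPKM).

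Upper glycolysis. The largest difference in the chain was in an enzyme that sets its pace and not in a step of it. Pfkfb1 encodes the liver form of the dual enzyme that makes and breaks fructose 2,6-bisphosphate, the activator of phosphofructokinase and inhibitor of fructose 1,6-bisphosphatase (chromosome X, 150588229 to 150643878, plus strand). It ran from 3.06 to 6.93 FPKM with a median of 4.38 FPKM in siLuc, and the siYap libraries read 12.3, 23.9, 29.5, 16.5 and 14.5 FPKM. The lowest siYap library stood well above the highest siLuc library. The means differed 4.24-fold (log2 fold change 2.09 ± 0.22, adjusted p = 1.39e-05, edgeR), with 2.30, 2.30 and 1.07 within digits 6, 7 and 8. Pfkfb3, the inducible form with the strongest kinase activity (chromosome 2, 11471433 to 11554077, minus strand), ran from 2.34 to 6.73 FPKM (median 3.48 FPKM) in siLuc and read 4.79, 4.67, 9.97, 6.90 and 7.61 FPKM in siYap. All 5 siYap libraries were above the siLuc median and 3 were above every siLuc library (log2 fold change 0.82 ± 0.26, adjusted p = 0.0266, edgeR). The call ended without siYap replicate 3 (adjusted p = 0.0955) or 5 (0.0548), or without replicates 1 and 3 together (0.123). The ratio of Pfkfb1 to Pfkfb3 was 0.27 ± 0.72 on the log2 scale in siLuc and 1.49 ± 0.53 in siYap, with overlap.

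The phosphofructokinase subunits did not pass. Pfkl, the liver subunit, was at 10.2 ± 3.06 and 9.08 ± 1.57 FPKM, Pfkm, the muscle subunit, at 5.69 ± 1.68 and 4.57 ± 0.843 FPKM, and Pfkp, the platelet subunit, at 2.70 ± 1.17 and 2.71 ± 1.01 FPKM. Fbp1, which opposes them in gluconeogenesis, was among the most abundant of the 42, at 336 ± 103 and 332 ± 80.7 FPKM, with a log2 fold change of -0.00 ± 0.23 (SE). Its lowest library was siLuc replicate 8 at 151 FPKM and its highest siLuc replicate 4 at 511 FPKM. The aldolase Aldoa, the muscle and fetal form, was at 68.6 ± 15.8 and 56.6 ± 17.4 FPKM (adjusted p = 0.350, edgeR). Aldoc, the form best known from brain, was at 8.77 ± 2.37 and 12.2 ± 4.98 FPKM. Of its siYap libraries 4 lay above every siLuc library and siYap replicate 1, at 3.50 FPKM, lay below them all. It did not pass (adjusted p = 0.154, edgeR) but did without that library (log2 fold change 0.67, adjusted p = 0.0125). Khk, fructokinase, was at 65.1 ± 22.8 and 52.0 ± 25.98 FPKM, and the isomerases Gpi1 and Tpi1 had log2 fold changes of 0.10 ± 0.20 and -0.04 ± 0.17.

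Lower glycolysis. The pyruvate kinases catalyse the last step. Pkm encodes the M1 form of muscle and the M2 form of fetal and tumour tissue, which these gene-level values do not separate (chromosome 9, 59656368 to 59679375, plus strand). It ran from 21.4 to 31.5 FPKM with a median of 27.5 FPKM in siLuc and read 46.0, 30.4, 40.7, 34.0 and 47.6 FPKM in siYap. Only siYap replicate 2 fell within the siLuc range (log2 fold change 0.60 ± 0.17, adjusted p = 0.0130, edgeR). The call ended without siYap replicates 1 and 3 together (adjusted p = 0.109). Pkm is also made by non-hepatocyte cells. Its highest libraries, siYap replicates 5 and 1, were the highest siYap libraries for the neutrophil marker S100a8, at 664 and 782 FPKM. In siYap replicate 3, Pkm was also above every siLuc library, at 40.7 FPKM. That library had the lowest siYap value of S100a8, 86.8 FPKM, which lay within the siLuc range, but the highest of another neutrophil marker, Csf3r, 2.88 FPKM. Of 7 stellate cell and fibroblast markers 3 rose and none fell, with sums of 50.4 to 289 FPKM in siLuc and 161 to 650 FPKM in siYap. The part of these cells in the Pkm value was not tested. Pklr, the liver and red cell form, ran from 8.04 to 37.6 FPKM in siLuc and from 8.94 to 71.6 FPKM in siYap, and its log2 fold change of 0.71 ± 0.44 did not pass (adjusted p = 0.234, edgeR). The ratio of Pklr to Pkm was -0.45 ± 0.71 on the log2 scale in siLuc and -0.48 ± 1.38 in siYap, so neither form was steadily the more abundant. It ran from -2.37 in siYap replicate 1 to 0.81 in siYap replicate 3.

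None of the steps between was called. Gapdh, the dehydrogenase often used as a reference gene, had the smallest adjusted p among them (78.5 ± 21.9 and 56.7 ± 11.7 FPKM, log2 fold change -0.46 ± 0.20, adjusted p = 0.0901, edgeR), and 3 of its 5 siYap libraries lay below every siLuc library. Pgk1, phosphoglycerate kinase, was at 131 ± 27.4 and 108 ± 24.1 FPKM. Pgam1, phosphoglycerate mutase, was at 52.5 ± 9.75 and 55.9 ± 11.5 FPKM. Eno1, the general enolase, was at 88.2 ± 19.7 and 92.3 ± 29.97 FPKM, and Eno3, the muscle enolase, at 2.58 ± 0.639 and 3.05 ± 1.26 FPKM. Several of these genes have near-identical processed copies in the genome, and how reads that match several places were handled is not given in the sources used here, so their levels are uncertain.

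Lactate. Slc16a1 encodes MCT1, which carries lactate and pyruvate in either direction (chromosome 3, 104638668 to 104658462, plus strand). It was steady in siLuc, from 37.99 to 57.7 FPKM with a median of 47.6 FPKM, and read 22.8, 36.1, 18.5, 27.3 and 43.5 FPKM in siYap. Of the 5 siYap libraries 4 lay below every siLuc library, and replicate 5 lay within their range. The log2 fold change was -0.66 ± 0.21 (adjusted p = 0.0248, edgeR). It did not pass without siYap replicate 1 (adjusted p = 0.0609), 3 (0.0711) or 4 (0.0510), nor in counts summed per file-name number (0.0723). Slc16a3, the lactate exporter MCT4 of glycolytic cells, was low, at 0.589 ± 0.317 and 0.739 ± 0.364 FPKM. Slc16a7, of the same gene family, is among the further genes described below and went the other way. It averaged 35.2 ± 20.6 FPKM under siLuc and 153 ± 63.4 FPKM under siYap. Its rise was 2.16 ± 0.38 on the log2 scale (adjusted p = 0.00102, edgeR). Of its 5 siYap libraries 4 lay above every siLuc library. Ldha, the lactate dehydrogenase subunit that predominates in liver, was at 214 ± 47.95 and 260 ± 108 FPKM (log2 fold change 0.30 ± 0.22), and its highest value was 426 FPKM in siYap replicate 5. Ldhb, the heart subunit, was at 1.97 ± 0.693 and 1.36 ± 0.532 FPKM, with differences of 0.84, -1.20 and -0.98 within digits 6, 7 and 8.

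Entry into gluconeogenesis. Pck1 encodes the cytosolic PEP carboxykinase that fasting induces. It ran from 42.95 to 331 FPKM with a median of 187 FPKM in siLuc and read 337, 67.9, 350, 213 and 406 FPKM in siYap. Although 3 of 5 siYap libraries exceeded every siLuc library, the spread was wide and the log2 fold change of 0.59 ± 0.45 did not pass (adjusted p = 0.341, edgeR). Libraries high in one were not always high in the other: siYap replicate 1 had 337 FPKM of Pck1 and 23.1 FPKM of G6pc, while siLuc replicate 2 had 128 and 170 FPKM. Pck2, the mitochondrial form, was at 3.75 ± 0.791 and 3.03 ± 0.451 FPKM, and Pcx, pyruvate carboxylase, at 69.9 ± 20.3 and 59.3 ± 19.6 FPKM. Of the 9 periportal markers, 5 of which fell, the summed level in these libraries was 1543 to 2987 FPKM in siLuc and 213 to 1311 FPKM in siYap.

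Glycogen. The glycogen genes held the largest rise and the largest fall of the 42. Ppp1r3c and Ppp1r3b encode targeting subunits that bring protein phosphatase 1 to glycogen, where it switches glycogen synthase on. Ppp1r3c (chromosome 19, 36731731 to 36736653, minus strand) ran from 1.37 to 5.28 FPKM in 7 siLuc libraries and reached 13.3 FPKM in siLuc replicate 1. The siYap libraries read 13.5, 27.8, 13.7, 25.97 and 21.4 FPKM, so that siYap replicate 1 lay only just above siLuc replicate 1 and the others further up. The means differed 4.98-fold (log2 fold change 2.37 ± 0.44, adjusted p = 0.00143, edgeR), and the log2 fold change was 2.86 without siLuc replicate 1. Ppp1r3b, the subunit that predominates in liver (chromosome 8, 35375739 to 35388139, plus strand), ran from 16.6 to 64.9 FPKM (median 30.6 FPKM) in siLuc and read 48.7, 59.2, 101, 89.9 and 66.2 FPKM in siYap. Of its siYap libraries 3 lay above every siLuc library, all 5 above the siLuc median, and only siLuc replicate 7 reached into the siYap range (log2 fold change 1.13 ± 0.30, adjusted p = 0.0117, edgeR).

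Pygb encodes the brain and fetal form of glycogen phosphorylase, the enzyme that frees glucose units from glycogen (chromosome 2, 150786735 to 150831758, plus strand). It ran from 14.5 to 41.1 FPKM with a median of 22.8 FPKM in siLuc and read 7.23, 10.7, 8.92, 8.62 and 6.65 FPKM in siYap. The groups did not overlap, and the means differed 2.78-fold (log2 fold change -1.43 ± 0.23, adjusted p = 0.000455, edgeR; -1.44, -1.37 and -1.23 within digits 6, 7 and 8). Pygl, the liver form, was at 90.1 ± 19.2 and 118 ± 33.7 FPKM and did not pass (log2 fold change 0.38 ± 0.19, adjusted p = 0.140, edgeR), although it did with the file code digit as a covariate (0.49, adjusted p = 0.0181). The log2 ratio of the liver to the brain form averaged 2.0 ± 0.66 in siLuc and 3.78 ± 0.36 in siYap. The highest siLuc ratio, 2.75, lay below the lowest siYap ratio, 3.41.

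The glycogen synthases did not show the same split. Gys1, the muscle form (chromosome 7, 45434844 to 45456619, plus strand), was low, at 0.556 to 1.06 FPKM in siLuc and 1.43, 1.22, 1.40, 0.821 and 1.67 FPKM in siYap, from 76 to 203 fragments per library. All siYap libraries but replicate 4 lay above every siLuc library (log2 fold change 0.78 ± 0.21, adjusted p = 0.0114, edgeR), and the call ended without siYap replicates 1 and 3 together (adjusted p = 0.0738). Gys2, the liver form, was far more abundant at 48.4 ± 15.6 and 70.1 ± 27.2 FPKM. It did not pass (log2 fold change 0.54 ± 0.27, adjusted p = 0.137, edgeR), but did with that covariate (0.67, adjusted p = 0.0140). The log2 ratio of Gys2 to Gys1 was 5.91 ± 0.73 in siLuc and 5.69 ± 0.89 in siYap, with overlap. Ugp2, which makes the UDP-glucose that the synthases use, was at 240 ± 67.6 and 206 ± 54.0 FPKM, and Gbe1, the branching enzyme, at 86.2 ± 37.3 and 77.1 ± 26.9 FPKM.

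**Figure D3:**
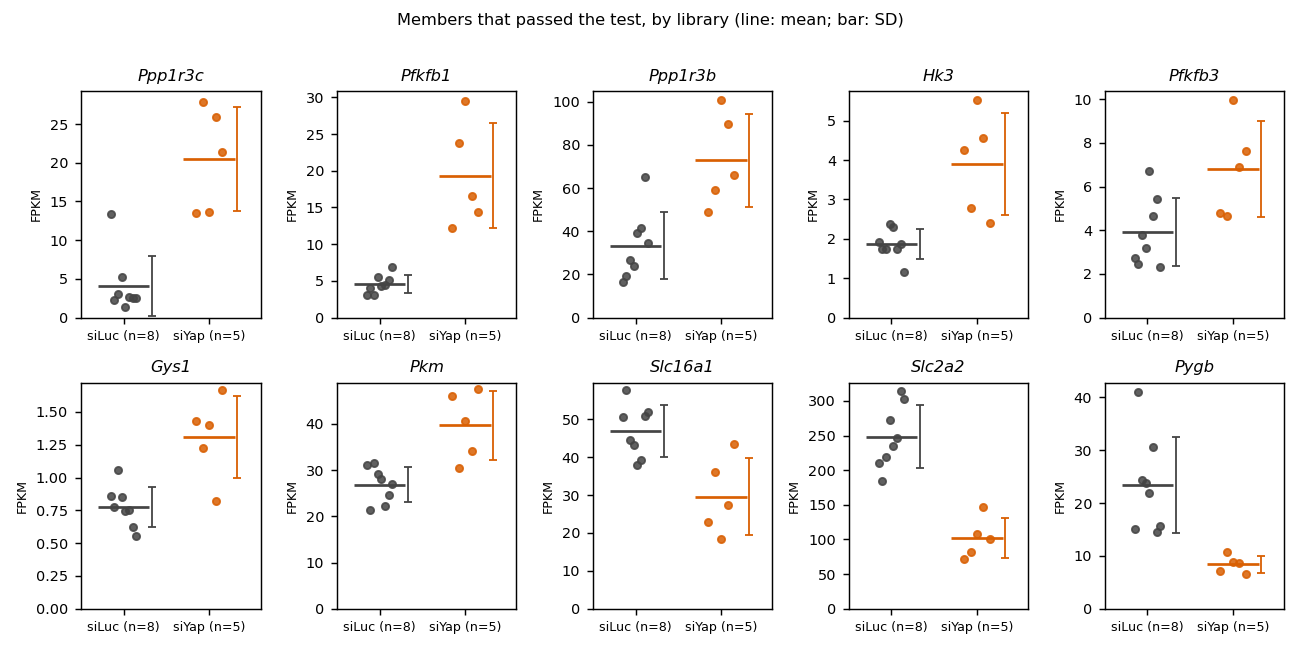
FPKM of the 10 genes that passed the test, 1 point per library, with the group mean as a line and the SD as a bar (siLuc, n = 8; siYap, n = 5). Slc2a2 and Pygb separate downward and Pfkfb1, Hk3 and Ppp1r3c upward, with siLuc replicate 1 at 13.3 FPKM just below the lowest siYap value of Ppp1r3c.

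The stretches before the start sites are shown for the 4 called genes whose log2 fold change was at least 1 in size and for which RefSeq lists a single start (GRCm38.p6, the same build as mm10), to let the largest rise and falls be compared at the sequence level. Each covers bases 250 to 81 before the start, 170 bases, read 5′ to 3′ on the strand of the gene, and none overlaps an annotated exon of its own gene. Capitals mark matches, on either strand, to ATCAAAG (the TCF/LEF motif), GGAATG (the TEAD motif), CACGTG (the E-box) or TGACGTCA (the full CRE).
Ppp1r3c, chr19:36736685-36736854, minus strand: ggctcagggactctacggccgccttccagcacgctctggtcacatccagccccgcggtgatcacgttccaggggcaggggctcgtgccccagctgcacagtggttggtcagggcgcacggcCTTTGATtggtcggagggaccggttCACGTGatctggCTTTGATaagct
Hk3, chr13:55021466-55021635, minus strand: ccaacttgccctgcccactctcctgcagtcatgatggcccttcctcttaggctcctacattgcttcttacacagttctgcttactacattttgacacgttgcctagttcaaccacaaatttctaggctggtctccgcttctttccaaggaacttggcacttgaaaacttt
Slc2a2, chr3:28697653-28697822, plus strand: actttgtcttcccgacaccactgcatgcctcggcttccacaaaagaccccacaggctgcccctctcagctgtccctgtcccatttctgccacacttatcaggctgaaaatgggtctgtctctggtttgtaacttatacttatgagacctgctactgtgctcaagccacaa
Pygb, chr2:150786546-150786715, plus strand: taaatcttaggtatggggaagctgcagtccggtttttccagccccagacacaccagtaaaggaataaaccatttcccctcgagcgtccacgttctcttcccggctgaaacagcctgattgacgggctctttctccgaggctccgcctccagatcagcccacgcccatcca

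The Ppp1r3c stretch holds CTTTGAT, the reverse of the TCF/LEF motif, at bases 129 to 123 and again at bases 92 to 86 before the start, with an E-box at bases 104 to 99 between them. The other 3 stretches hold none of these letters, which says nothing of the factors. Over all 32851 RefSeq stretches of the same length, 2.23% hold the TCF/LEF motif, 9.12% the TEAD motif, 3.38% the E-box and 0.493% the full CRE. Of the 40 genes described here that RefSeq lists, 3 hold the TCF/LEF motif (G6pc, Pklr and Ppp1r3c), 3 the TEAD motif (Aldoa, Aldoc and Eno1), 6 the E-box and none the full CRE, counting a gene with several starts once. These counts are per gene and the shares above per stretch, and only 27 of the 40 list a single start. The share per gene over all genes was not computed, so the counts have no background in the same unit. A match is a description of the letters and not a binding site.

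Liver forms against general forms. Sorted by where each form predominates, 3 of 14 genes of the liver type were called (Pfkfb1 and Ppp1r3b higher, Slc2a2 lower), 5 of 17 of the muscle, brain, fetal or general type (Hk3, Pfkfb3, Pkm and Gys1 higher, Pygb lower) and 2 of 11 shared by most tissues (Ppp1r3c higher, Slc16a1 lower). The median log2 fold changes were 0.20, 0.25 and -0.04. Neither type moved as a block. Ratios of 2 forms within a library, which do not depend on the scaling between libraries, were formed for 13 pairs. The treatments did not overlap for 2 of them: Slc2a2 to Slc2a1, which was lower in siYap, and Pygl to Pygb, which was higher. Each holds a gene that separated the treatments alone, Slc2a2 or Pygb, and a partner that overlapped. Of single genes tested, 5.57% separated upward and 5.66% downward. The share over other pairs of genes was not computed, so the count of 2 has no background. Of 4 ratios of opposed steps (G6pc to Hk2, Fbp1 to Pfkl, Pck1 to Pklr and Gys2 to Pygl), none separated the groups. The mean log2 ratio of Fbp1 to Pfkl was 5.01 ± 0.70 in siLuc and 5.18 ± 0.29 in siYap. That of Gys2 to Pygl was -0.94 ± 0.53 and -0.80 ± 0.32.

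**Figure D4:**
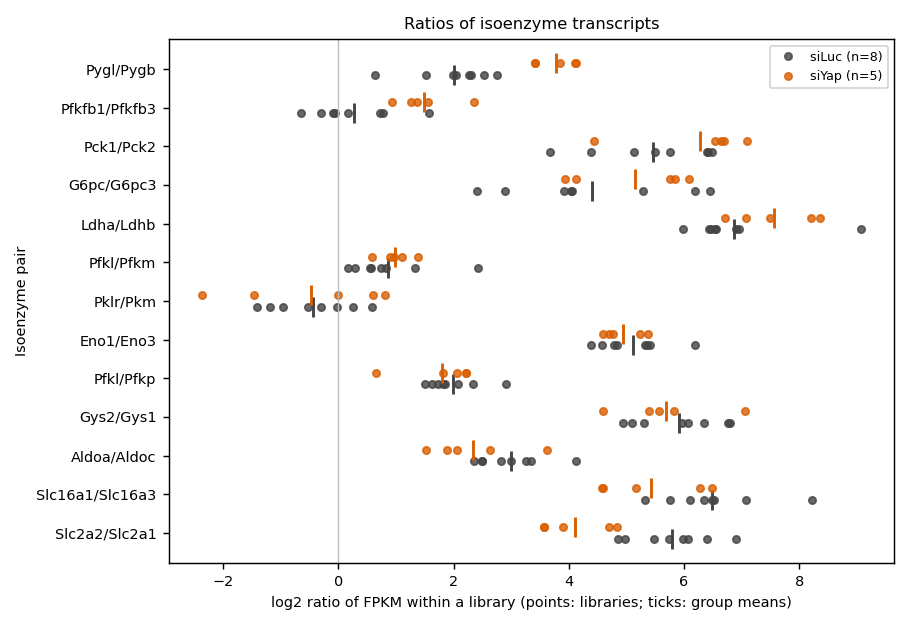
Log2 ratio of FPKM of 13 isoenzyme pairs within each library (points) with group means as ticks, for siLuc (grey, n = 8) and siYap (orange, n = 5). The groups separate for Pygl/Pygb (siYap above) and, narrowly, for Slc2a2/Slc2a1 (siYap below); the other 11 overlap.

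Some libraries stood apart over the pathway. siYap replicate 1, the library with the lowest total, was the lowest of the 5 siYap libraries for 25 of the 42 genes (59.5%), while it was the lowest for 28.0% of all genes tested. siLuc replicate 1 was the highest siLuc library for 12 of the 42 (28.6%, beside 21.4% of all genes tested), among them Hk2, Gpi1, Pfkl, Pfkp, Aldoa and Gapdh. Without siYap replicates 1 and 3 together, 5 genes were called higher and 2 lower, 6 of them among the 10. The median SD within a group on the log2 CPM scale was 0.406 in siLuc and 0.434 in siYap for the 42 genes, beside 0.334 and 0.400 for all genes tested.

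Beyond the 42, genes acting on pyruvate, glycerol and glycogen held large rises. Of 90 further genes of glucose handling, from a list set up with earlier results of these data known, 26 rose, 10 fell and 54 did not pass, 40.0% called beside the background of 30.8%, with a median log2 fold change of 0.13. The count of 10 lower became 5 without siYap replicate 3, 6 without siYap replicate 1, 6 without siLuc replicate 1 and 1 without siYap replicates 1 and 3 together. In the group for pyruvate and lactate handling, 7 of 16 rose and 1 fell. Pdk4, a kinase that switches the pyruvate dehydrogenase complex off, ran from 0.983 to 4.57 FPKM in siLuc and read 5.54, 17.7, 16.98, 26.9 and 23.7 FPKM in siYap, with a log2 fold change of 3.28 ± 0.41 (adjusted p = 8.07e-05, edgeR). The lowest siYap library was again replicate 1, and the highest siLuc library again replicate 1. Pdk2, a kinase of the same family, rose from 1.06 ± 0.377 to 4.33 ± 2.89 FPKM (adjusted p = 0.000382, edgeR). Pdp2, a phosphatase that switches the complex on, averaged 3.41 ± 0.439 FPKM under siLuc and 10.2 ± 2.56 FPKM under siYap, a rise of 1.58 ± 0.16 on the log2 scale (adjusted p = 8.18e-06, edgeR), and Dlat, a core subunit of the complex, from 9.61 ± 1.42 to 26.99 ± 8.53 FPKM (adjusted p = 0.000100, edgeR). The family did not move one way. Pdp1, the other phosphatase of the complex, fell from 8.56 ± 1.76 to 4.59 ± 1.86 FPKM, a log2 fold change of -0.89 ± 0.22 (adjusted p = 0.00804, edgeR), with 4 of 5 siYap libraries below every siLuc library. The kinases Pdk1 and Pdk3 did not pass, with log2 fold changes of 0.96 ± 0.39 and -0.75 ± 0.33. Ldhd, a D-lactate dehydrogenase, rose from 10.1 ± 3.34 to 40.8 ± 16.3 FPKM.

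Among genes of glycerol and the metabolite shuttles, 4 of 8 rose and 1 fell. Aqp9, the channel by which hepatocytes take up glycerol, ran from 7.66 to 47.7 FPKM in siLuc and read 119, 295, 192, 338 and 233 FPKM in siYap, with a log2 fold change of 3.25 ± 0.40 (adjusted p = 6.82e-05, edgeR). Mdh2, the mitochondrial malate dehydrogenase, rose from 27.6 ± 3.77 to 60.7 ± 19.7 FPKM (adjusted p = 0.000148, edgeR). Aldh2, a mitochondrial aldehyde dehydrogenase, was in the group for fructose, galactose and polyols, where 2 of 9 rose and 1 fell. It went from 75.6 ± 26.0 to 286.5 ± 106 FPKM. In the transcriptional and hormonal group 4 of 11 rose and 2 fell. Foxo1, the factor that drives gluconeogenic genes when insulin is low, ran from 1.79 to 2.72 FPKM in siLuc and read 7.08, 4.85, 10.3, 5.01 and 6.21 FPKM in siYap, with a log2 fold change of 1.62 ± 0.18 (adjusted p = 2.36e-05, edgeR).

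A further glycogen-targeting subunit of protein phosphatase 1 rose beside those above. Ppp1r3g had 4 to 30 fragments per siLuc library and 43 to 455 per siYap library. Its level was 0.045 to 0.344 FPKM under siLuc, against 0.752, 1.29, 5.45, 6.49 and 2.06 FPKM for the siYap libraries. The rise was 3.97 ± 0.53 on the log2 scale (adjusted p = 0.000112, edgeR). In that group, the further glycogen genes, 4 of 20 rose and 1 fell, 25.0% called. The remaining groups gave 2 higher and 3 lower of 10 further glycolytic forms and regulators, 1 higher of 8 hexose carriers, and 2 higher and 1 lower of 8 pentose phosphate genes.

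**Figure D5:**
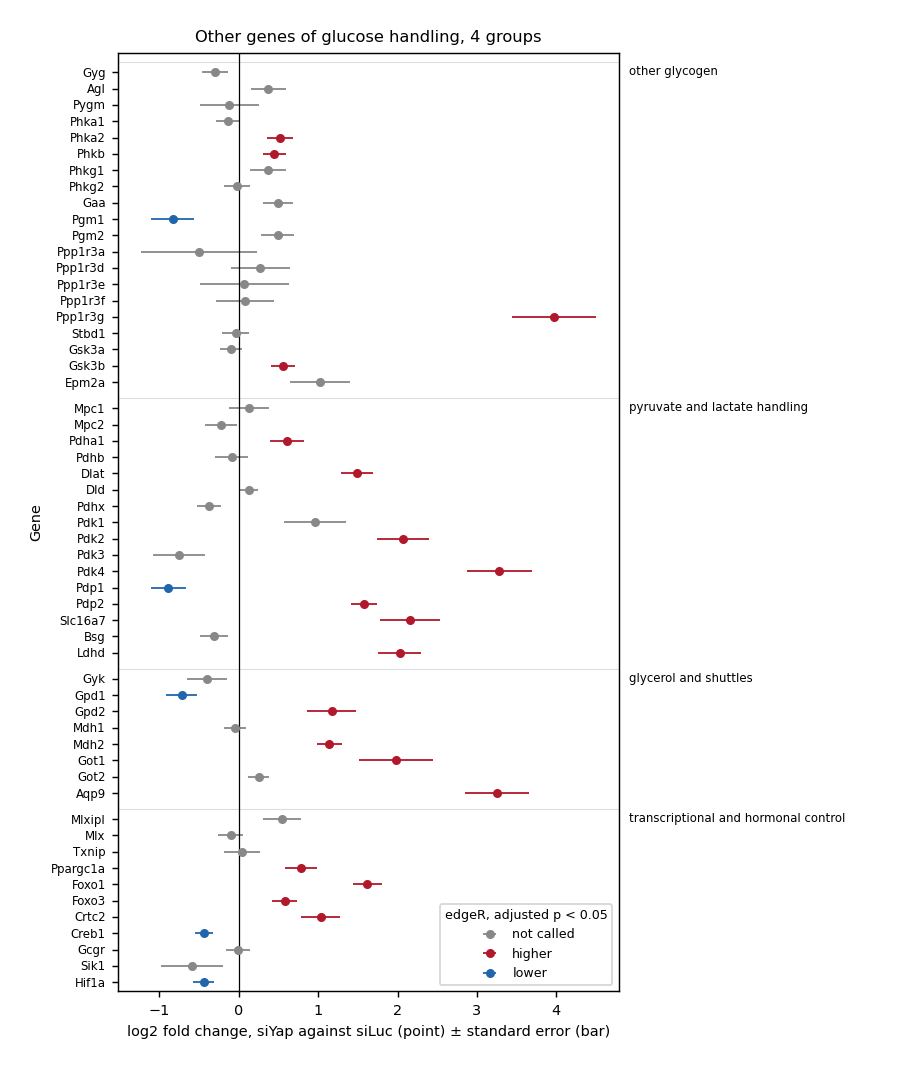
Log2 fold change with its standard error for 4 groups of further genes of glucose handling, siYap (n = 5) against siLuc (n = 8), in red (higher) or blue (lower) where the test was passed and grey where not. Ppp1r3g, Pdk4 and Aqp9 lie above 3, while of the pyruvate dehydrogenase phosphatases Pdp2 lies above 0 and Pdp1 below.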

How the data were processed

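Tumour RNA was turned into libraries with the ScriptSeq Complete Gold kit and read on a HiSeq2500, per the labels' protocols. The submitters' processing notes name Trimmomatic 0.30, TopHat2 2.0.8, Cufflinks, Cuffdiff 2.1.1 and mouse build mm10. The annotation, the strand setting and the treatment of multi-mapped reads were not given in the sources used here. The authors deposited 1 table per library with estimated counts (raw fragments, 97.6% to 98.0% of them within 1e-06 of a whole number) and FPKM scaled by Cuffdiff, per the file headers. The series-wide FPKM table was left out. No gene described carried a failure mark.

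Estimated counts were rounded and tested with edgeR 4.0.16 in R 4.3.3 (quasi-likelihood, robust, TMM, default filter by group, no covariates, 13 libraries), which left 15132 genes; the code was tested on simulated data. P-values were adjusted over all of them. The SE of a log2 fold change is its size divided by the square root of F. Levels are FPKM as mean ± SD. The genes, lists, pairs and motifs were chosen with earlier results of these data known. All 42 genes are named, and of the 90 further genes the 10 with the smallest p among those called and reaching a mean of 1 FPKM under either treatment. S100a8 and the other neutrophil markers named, Slc16a7, Pdp1, Pdk1 and Pdk3 were chosen after their values were seen. Alternatives used limma 3.58.1 and DESeq2 1.42.0. Libraries of 1 group differed by more than counting error in every pair (chi-square over degrees of freedom at least 35.1).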

Additional observations from a re-analysis of the deposited data

Results flagged for a closer look

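Among the 84 groups of values tested (42 genes in 2 treatments), 12 held a library far from the others by Dixon's ratio of gap to range. Chance flags about 1 in 20 where values are normally distributed, which was not tested for these FPKM values. The groups share the same libraries, so the flags are not separate events. siLuc replicate 1 was the distant library in 8 of them, each time as the highest. Its values, with the nearest other siLuc library, were 5.34 against 1.13 FPKM for Hk2, 35.6 against 22.3 FPKM for Gpi1, 17.1 against 11.2 FPKM for Pfkl, 5.20 against 3.10 FPKM for Pfkp, 104.5 against 74.4 FPKM for Aldoa, 128 against 83.1 FPKM for Gapdh, 1.27 against 0.699 FPKM for Slc16a3 and 13.3 against 5.28 FPKM for Ppp1r3c. siLuc replicate 8, the male library, was lowest for Gckr (27.9 against 41.2 FPKM) and highest for Pgam1 (75.2 against 54.7 FPKM). siYap replicate 1 was highest for Pfkp (4.48 against 2.59 FPKM) and lowest for Aldoc (3.50 against 12.9 FPKM).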

How the results depend on the processing

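All 250 recomputed log2 fold changes of the 10 called genes kept their direction, and 6 of the 10 (Slc2a2, Hk3, Pfkfb1, Pygb, Ppp1r3b and Ppp1r3c) were called under each of the 25 alternatives that refit the genes. The other 4, Pfkfb3 among them, lost the call at least once under the settings named with them, and Pkm (adjusted p = 0.0529), Slc16a1 (0.0684, and 0.156 without siYap replicates 1 and 3 together) and Gys1 (0.152) also with the replicate block. Of the 42 genes, 7 higher and 3 lower became 3 and 2 at an adjusted p under 0.01, and 4 and 2 at a log2 fold change of at least 1 in size. Leaving out each library in turn gave 6 to 8 higher and 2 to 3 lower. Of the 90 further genes, 26 higher and 10 lower became 17 and 2 at the stricter p, 16 and 1 at the fold limit, and 4 lower in counts summed per file-name number. Without each library they were 23 to 28 and 5 to 10, and without siYap replicates 1 and 3 together, chosen after seeing the data, 1 was lower. The 4668 genes called in all became 2984 without those libraries, 2362 at the stricter p, 1992 at the fold limit and 3325 to 4633 without each library. Replicate numbers are shared between the treatments but did not pair the libraries (correlations of deviations -0.12, 0.127, 0.072, 0.118 and -0.0873; 2 of 5 correlated best with their own number). The replicate block gave 6 higher and 2 lower of the 42, 16 and 2 of the 90, and 2325 genes in all. The cause of these changes was not tested, beyond fewer samples or a stricter limit.

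Of the genes not called, 11 changed sign at least once. Without each library in turn the ranges were -0.14 to 0.16 for Slc37a4, -0.72 to 0.28 for Hk2, -0.05 to 0.64 for G6pc, -0.02 to 0.28 for Gpi1, -0.22 to 0.03 for Pfkl, -0.26 to 0.25 for Pfkp, -0.16 to 0.11 for Fbp1, -0.13 to 0.04 for Tpi1 and -0.04 to 0.20 for Eno1. Slc37a4 was at -0.01 with upper-quartile scaling, -0.01 in limma on log2(FPKM + 1) and -0.02 on log2(FPKM + 0.1), and Hk2 at 0.27 with DESeq2. Pfkp was at -0.20 and Gbe1 at 0.04 with the replicate block. Fbp1 was at 0.01 with a mean count of at least 50, 0.03 in limma at either pseudocount, 0.12 summed per file-name number, 0.02 with the number as a random effect and 0.09 with the digit as a term. Without siYap replicates 1 and 3 together, Gpi1 was at -0.04, Pfkp at -0.25, Fbp1 at 0.13, Tpi1 at 0.14, Ugp2 at 0.03 and Gbe1 at 0.01. All 238 recomputed pair ratio differences moved by less than 1 SD between libraries. The median log2 fold change of all genes was -0.003 as reported, -0.005 with DESeq2 size factors and -0.014 with upper-quartile scaling.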
